A study of Mus musculus with 26 samples.

Results

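Dividing microglia were singled out from the microglia sorted from the embryonic mouse somatosensory cortex. Cells of the 12 libraries of E13.5 and E15.5 were kept when they held at least 500 genes and no more than 20% mitochondrial UMIs (unique molecular identifiers, one per captured transcript). A cell counted as a microglial cell with at least 3 UMIs over Csf1r, C1qa, C1qb and Cx3cr1. It counted as dividing with at least 8 UMIs over Top2a, Mki67, Cenpf, Cenpe, Ube2c and Birc5. By this rule 8720 of 35528 embryonic microglia were dividing, out of 37948 cells past the filters in these libraries and 111303 in the whole series. The members were thus chosen by their measured UMIs of these 10 genes, whose values below describe the choice and carry no test.

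All 12 libraries came from WT C57Bl/6N embryos of mixed sex whose mothers were injected at E12.5. The mothers of the MIA (maternal immune activation) groups received poly(I:C), which mimics viral double-stranded RNA, and those of the control groups received saline. Each of the 4 groups, E13.5 saline, E13.5 MIA, E15.5 saline and E15.5 MIA, held 3 libraries. The labels give the stages as E13 and E15, and the study gives them as E13.5 and E15.5. Every library pooled several embryos, sorted for Cd11b and Cx3cr1 with low Cd45, so the p-values below measure the spread between pools.

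Microglia derive from yolk sac progenitors that seed the embryonic brain early, and they then fill the cortex by dividing in place. A dividing cell copies its DNA in S phase with the MCM helicase, its loading factors and the DNA polymerases. It then raises the mitotic genes, such as cyclin B, the kinetochore and spindle proteins and the anaphase-promoting complex, which destroys cyclin B and ends mitosis. The transcription factors E2F drive the S phase genes, while the MuvB complexes act at a short promoter element, the cell cycle homology region (CHR), in many mitotic genes.

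The promoters of the genes that the results turn on are shown first, as examples of the mitotic and S phase genes whose levels are described below. The sequences are from RefSeq on GRCm38.p6 and run from 250 bases before to 50 bases after the annotated start, 5′ to 3′ on the strand of the gene. Mki67, which encodes a protein that coats mitotic chromosomes, lies on the minus strand at chr7:135716330-135716629. Ube2c, the ubiquitin-conjugating enzyme of the anaphase-promoting complex, is on the plus strand at chr2:164769679-164769978. Ccnb2, a cyclin B, is on the minus strand at chr9:70421505-70421804. Mcm5 and Mcm6, subunits of the MCM helicase, are at chr8:75109259-75109558 on the plus strand and at chr1:128359656-128359955 on the minus strand. Capitals mark every match on either strand to a CHR (TTTGAA or TTCGAA), to CCAAT or to an E2F element (TTTCCCGC, TTTGCCGC, TTTCGCGC or TTTGGCGC), and overlapping matches run together.
Mki67: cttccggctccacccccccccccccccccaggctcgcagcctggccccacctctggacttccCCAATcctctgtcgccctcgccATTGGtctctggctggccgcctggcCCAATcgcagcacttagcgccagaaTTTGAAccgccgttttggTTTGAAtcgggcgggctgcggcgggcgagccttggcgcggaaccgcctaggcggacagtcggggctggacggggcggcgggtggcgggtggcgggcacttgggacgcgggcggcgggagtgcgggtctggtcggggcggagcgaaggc
Ube2c: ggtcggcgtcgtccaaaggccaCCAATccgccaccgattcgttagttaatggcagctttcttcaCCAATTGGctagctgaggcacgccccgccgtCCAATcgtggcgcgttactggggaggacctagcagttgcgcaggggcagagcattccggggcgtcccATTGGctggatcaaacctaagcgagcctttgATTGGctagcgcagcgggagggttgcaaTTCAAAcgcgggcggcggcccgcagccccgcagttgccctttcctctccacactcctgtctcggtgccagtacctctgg
Ccnb2: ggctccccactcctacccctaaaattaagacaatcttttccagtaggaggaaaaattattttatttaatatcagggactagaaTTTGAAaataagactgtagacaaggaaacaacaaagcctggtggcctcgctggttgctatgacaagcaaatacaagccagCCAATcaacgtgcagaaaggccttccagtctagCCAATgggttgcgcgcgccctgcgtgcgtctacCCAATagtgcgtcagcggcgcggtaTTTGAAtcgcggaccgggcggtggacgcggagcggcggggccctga
Mcm5: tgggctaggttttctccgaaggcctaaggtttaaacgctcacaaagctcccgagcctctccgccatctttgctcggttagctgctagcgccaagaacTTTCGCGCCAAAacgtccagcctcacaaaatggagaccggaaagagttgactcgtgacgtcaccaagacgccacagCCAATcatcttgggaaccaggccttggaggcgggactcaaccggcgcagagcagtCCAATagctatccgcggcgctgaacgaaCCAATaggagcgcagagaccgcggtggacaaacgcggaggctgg
Mcm6: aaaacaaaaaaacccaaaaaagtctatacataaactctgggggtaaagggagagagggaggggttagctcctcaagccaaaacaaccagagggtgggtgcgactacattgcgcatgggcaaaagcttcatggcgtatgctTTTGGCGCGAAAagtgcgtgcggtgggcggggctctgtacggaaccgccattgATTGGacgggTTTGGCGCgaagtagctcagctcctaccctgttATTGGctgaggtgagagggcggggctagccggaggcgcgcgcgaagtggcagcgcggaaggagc

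Mki67, Ube2c and Ccnb2 held CHR and CCAAT matches and no E2F match, and Mcm5 and Mcm6 held E2F and CCAAT matches and no CHR match. Over the promoters of a list of 20 mitotic genes, 15 of 20 promoters held a CHR, 17 a CCAAT box and 0 an E2F match. Over a list of 20 S phase genes, 9 of 21 promoters held an E2F match, 4 a CHR and 15 a CCAAT box. Of the gene groups tested below, a CHR was in 9 of 22 kinetochore and 7 of 17 replication origin promoters and a CCAAT box in 16 and 12 of them. An E2F match was in 3 of the 22 and 8 of the 17. Among the spindle and cytokinesis promoters 24 of 27 held a CHR, as did 4 of 30 DNA synthesis promoters. A CCAAT box was in 20 and 16 of these, and an E2F match in 2 and 10. Of all 32851 promoters in the table, 19.2% held a CHR, 37.4% a CCAAT box and 2.26% an E2F match. Of the 6 division genes of the rule, 4 held a CHR and 5 a CCAAT box, and Birc5 held none of these elements in this window. Among genes named below, the Nusap1 window held none of them and that of Pcna only a CCAAT match. A match describes the letters of the window and does not show that a factor binds there.

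The libraries were unequal in size and depth. They held between 6160925 and 105751888 UMIs in cells past the filters and between 116 and 2732 dividing microglia. The smallest numbers of members were in E13.5 MIA 2 (116), E13.5 MIA 1 (123) and E15.5 MIA 3 (154). The members carried more UMIs at E13.5, with library medians from 22747 to 35655, than at E15.5, with medians from 12296 to 18032. Some libraries shared cell barcodes, 487 of which were found in 2 or more libraries and 371 member cells of which carried one. In E13.5 MIA 2, 108 of 116 members (93.1%) had a barcode found in another library, as had 68 of 154 (44.2%) in E15.5 MIA 3, 50 of 123 (40.7%) in E13.5 MIA 1 and 51 of 381 (13.4%) in E15.5 saline 3. E13.5 MIA 2 and E15.5 MIA 3 held 67 such cells that were members in both, and 99.1% of the barcodes they shared had their best match in the other library at the same barcode. In E15.5 MIA 3, 68 members had more UMIs under their barcode in another library, as had 47 in E15.5 saline 3. In E13.5 MIA 2 it was 1 member and in E13.5 MIA 1 it was 0. As alternatives, every shared barcode was left out or kept only in its deepest library, and the values are given beside the results they move most.

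The members varied widely in how strongly they carried the division genes. The median member had 33 UMIs over the 6 genes, the 10th percentile had 10, the 90th had 158 and the highest had 584. The median member carried a UMI of 6 of the 6 genes. Between 76.1% of members, for Cenpe, which encodes a kinetochore motor, and 92.4%, for Birc5, which encodes survivin of the chromosomal passenger complex, held at least 1 UMI of a given gene. Just under the threshold, 1033 microglia with 6 to 7 UMIs had 23% of their S phase and mitotic UMIs in mitotic genes. Just above it, 734 members with 8 to 9 UMIs had 26%, and 3312 members with 50 or more UMIs had 69.0%. The values on both sides of the threshold were close.

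Levels below are given in CPM, which scales a gene to 1000000 UMIs of the members of a library, or of all members where no library is named. Top2a, the topoisomerase that untangles replicated chromosomes, was at 608 CPM in members and 24.1 CPM in the other 26808 microglia. Mki67 was at 637 and 16.0 CPM, Ube2c at 581 and 27.0 CPM, Cenpf of the outer kinetochore at 277 and 8.15 CPM, and Cenpe at 199 and 6.27 CPM. Genes that the rule did not name lay on the same side. Prc1, which bundles the microtubules of the central spindle, was at 219 CPM in members and 6.82 CPM in other microglia. Cdc20, an activator of the anaphase-promoting complex, was at 119 and 4.64 CPM, and Hmgb2, a chromatin protein, at 1410 and 185 CPM. These levels pool the ages, which members and other microglia held in different proportions, so the next ones are means over the 6 libraries of each age. The S phase genes varied in how far apart they stood. Pclaf, a protein that binds PCNA, was at 493 CPM in members and 90.3 CPM in other microglia at E13.5 and at 537 and 20.2 CPM at E15.5, and was higher in members in 12 of 12 libraries. Mcm6 was at 136 CPM in members and 121 CPM in other microglia at E13.5 and at 90.7 and 39.2 CPM at E15.5, and was higher in members in 10 of 12 libraries. Mcm3 was at 179.9 and 175 CPM at E13.5 and at 143 and 76.6 CPM at E15.5, and was higher in members in 9 of 12.

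Counted by library, all 29 spindle and cytokinesis genes, all 23 kinetochore genes and all 17 chromosome structure genes were higher in members in 12 of 12 libraries. So were 54 of 58 replication histone genes, 21 of 26 DNA synthesis genes and 12 of 20 replication origin genes. Of all 11647 genes compared, 15.3% were higher and 9.44% lower in members in 12 of 12 libraries. Those shares follow from the rule and are read no further. On the lower side were 54 of 77 ribosomal protein genes and 8 of 25 microglial identity genes. P2ry12, a purinergic receptor of resting microglia, averaged 898 CPM in members and 959 CPM in other microglia at E13.5 and 1429 and 2018 CPM at E15.5, and was higher in members in 2 of 12 libraries. Tmem119, a microglial surface marker, averaged 178 and 188 CPM at E13.5 and 328 and 361 CPM at E15.5, and was higher in members in 1 of 12. Spp1, which encodes osteopontin, averaged 92.7 and 186 CPM at E13.5 and 180.3 and 239.6 CPM at E15.5, and was higher in members in 0 of 12. The chemokine gene Ccl4 differed in sign between the ages, with 55.5 and 41.9 CPM at E13.5 and 61.1 and 126 CPM at E15.5, and was higher in members in 4 of 12.

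Ordered by how much of their cell cycle signal was mitotic, the members ran from replication to mitosis, as a description, since the order itself is set by S phase and mitotic genes. The measure was the mitotic share, the UMIs of the 20 mitotic genes as a percent of those UMIs plus the UMIs of the 20 S phase genes, and neither list holds a gene of the rule. Over all members its median was 68.7%, with 15.4% at the 10th and 91.7% at the 90th percentile. From the quintile of members with the lowest share to that with the highest, replication origin genes went from 2114 to 442 CPM and DNA synthesis genes from 3211 to 844 CPM. Spindle and cytokinesis genes went from 1142 to 4585 CPM. Replication histones peaked in between, at 3610, 6785, 6256, 4690 and 2878 CPM over the 5 quintiles. Among the genes of the rule, Ube2c went from 81.3 to 1221 CPM and Cenpf from 49 to 587 CPM, whereas Top2a was at 367 CPM in the lowest quintile and between 663 and 717 CPM in the other 4. The summed microglial identity genes varied little, between 17367 and 18533 CPM.

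**Figure D1:**
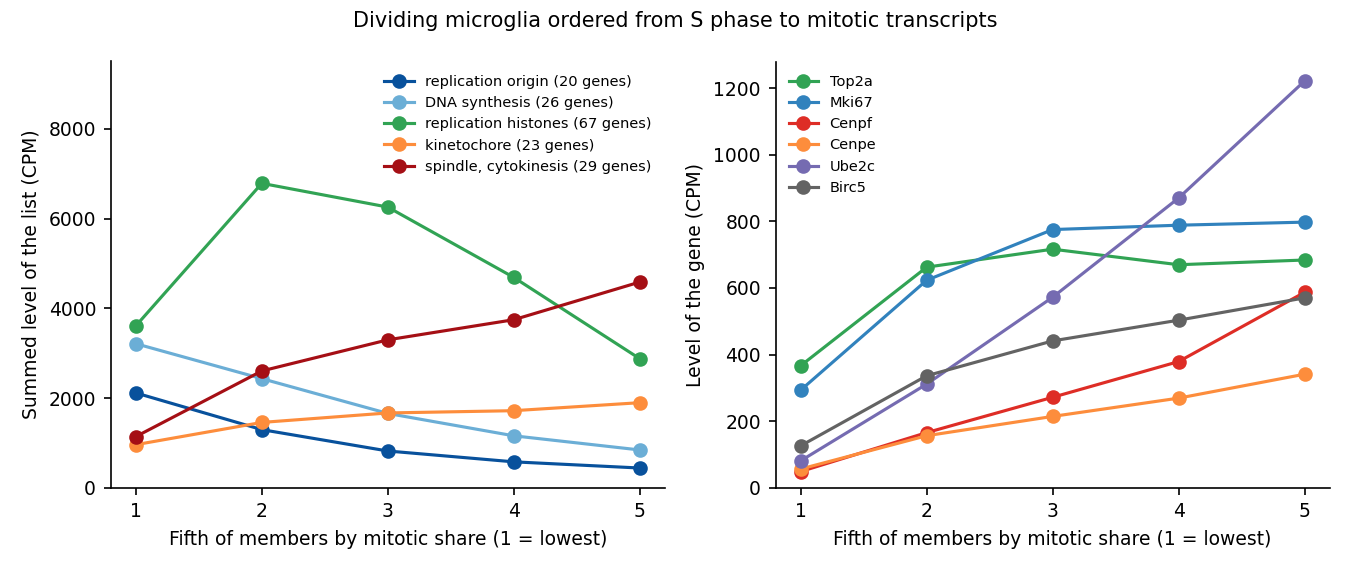
Summed CPM of gene lists (left) and CPM of the 6 division genes of the rule (right) in quintiles of the 8720 dividing microglia, ordered by the mitotic share of their S phase and mitotic UMIs. Replication genes are highest in the lowest quintile, histones in the next one (6785 CPM) and spindle genes in the highest (4585 CPM).

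The median member held 240 UMIs and 10819 CPM over Csf1r, C1qa, C1qb and Cx3cr1, which the rule used to choose it. The 25 microglial identity genes, none of them in the rule, summed to between 14710 and 25664 CPM over the members of every library. RNA of other cells was uneven between libraries. The 7 neuronal markers summed to 15.9 to 55.5 CPM over the members of the E13.5 libraries and to 43.0 to 1179 CPM at E15.5, with the highest values in E15.5 MIA 1 (1179 CPM), E15.5 MIA 2 (603 CPM) and E15.5 saline 1 (326 CPM). The neural progenitor markers reached 1232 CPM in E15.5 MIA 1 and stood between 163 and 248 CPM elsewhere. Red cell markers, chiefly globins, ranged from 11.6 CPM in E15.5 saline 3 to 31292 CPM in E15.5 MIA 2. The vascular markers (13.8 to 118 CPM) and blood myeloid markers (4.6 to 38.0 CPM) were low throughout.

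A few members had little microglial RNA. In 169 members (1.94%) the 4 microglial genes made up less than 2000 CPM, and their median was 5 such UMIs. These cells held 5281 CPM of neuronal, 2609 CPM of progenitor and 92941 CPM of red cell markers, against 61.1, 191 and 99.2 CPM in the other 8551 members. E15.5 MIA 1 held 68 of them, or 17.8% of its members, E15.5 MIA 2 held 3.85% and no other library more than 3.19%. Gene results that touch these cells are also given for the 8551 members with at least 2000 CPM.

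**Figure D2:**
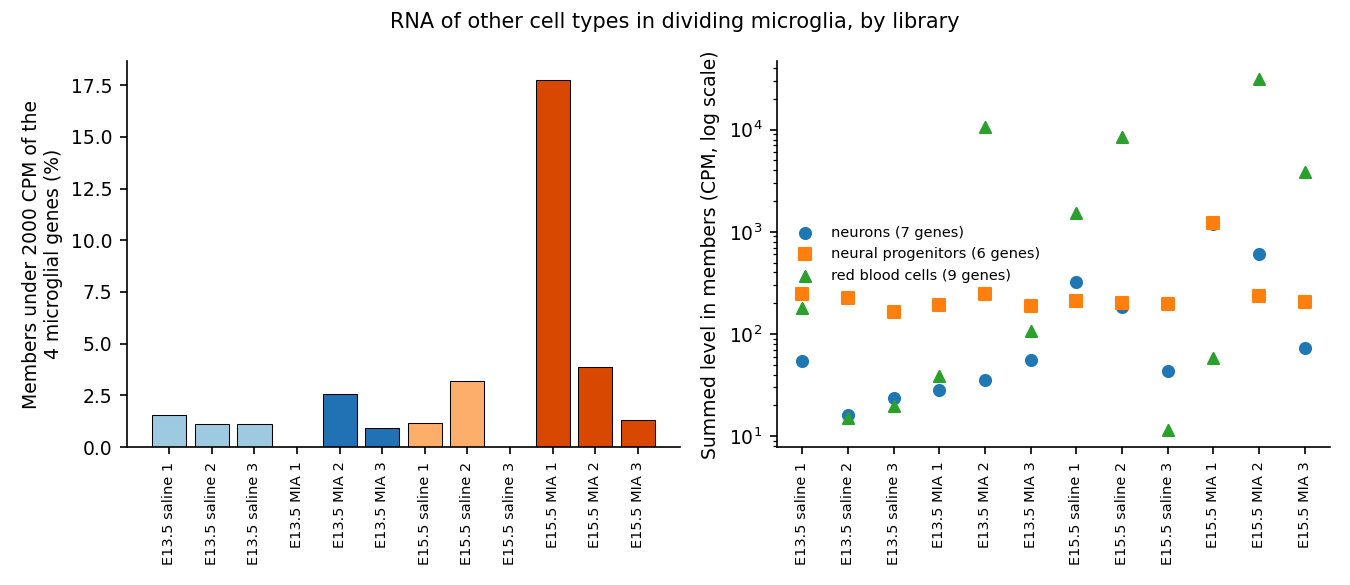
Percent of members with under 2000 CPM over Csf1r, C1qa, C1qb and Cx3cr1 by library (left), and summed CPM of the neuronal, neural progenitor and red cell markers over the members of each library on a log axis (right). E15.5 MIA 1 stands apart with 17.8% of such members and 1179 CPM of neuronal markers.

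Dividing cells made up less of the microglia at E15.5 than at E13.5. At E13.5 they were 44.3%, 44.9% and 39.0% of microglia in the saline libraries (42.7% ± 3.29, SD, n = 3) and 45.2%, 32.3% and 45.6% in the MIA libraries (41.0% ± 7.57, SD, n = 3). At E15.5 they were 30.7%, 8.55% and 8.51% in the saline libraries (15.9% ± 12.8, SD, n = 3) and 7.67%, 9.19% and 10.9% in the MIA libraries (9.27% ± 1.63, SD, n = 3). E15.5 saline 1, at 30.7%, stood apart from the other E15.5 libraries and was still below every E13.5 library. The mean over both treatments was 29.3 percentage points lower at E15.5 (two-sided exact permutation test with ages permuted within treatment, p = 0.005, the smallest its 400 arrangements allow). This test takes the libraries of an age as independent, although same-numbered saline and MIA libraries of E15.5 deviated together in gene levels. With 3 pairs at each age an exact p could not go under 0.1. Within saline the difference was -26.8 points and within MIA -31.8 points (exact p = 0.1 each, the smallest 3 against 3 allow).

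The same direction held when the microglia of at least 5000 UMIs were brought to that depth. Shallower cells were left out, between 49 and 1686 per library at E13.5 and between 266 and 1073 at E15.5. Cells thinned to 5000 UMIs, with at least 4 UMIs of the 6 genes required, gave between 40.4% and 50.3% at E13.5, between 8.14% and 11.3% in 5 of the E15.5 libraries and 34.3% in E15.5 saline 1 (difference -33.3 points, exact p = 0.005). Without shared barcodes the difference was -24.6 points (exact p = 0.02), and E13.5 MIA 2 then stood at 6.02%, below every E15.5 library, the lowest of which was at 7.29%. The cells left in E13.5 MIA 2 had a median of 1563 UMIs, against 17242.5 UMIs in those taken out. With each shared barcode kept only in its deepest library the difference was -30.6 points (exact p = 0.005). At P14 the same rule found 238 dividing cells among 29598 microglia, between 0.101% and 1.84% per library, which were not compared further. Between MIA and saline the share differed by -4.18 points over both ages (exact p = 0.46), by -1.70 points at E13.5 and by -6.66 points at E15.5 (exact p = 1 and 0.7). E15.5 saline 1 weighed on these values. The other E15.5 saline libraries, at 8.55% and 8.51%, lay within the range of the E15.5 MIA libraries, and without E15.5 saline 1 the difference over both ages was -0.480 points. Without shared barcodes the difference over both ages was -11.0 points (exact p = 0.105), with E13.5 MIA 2 at 6.02%, and with each shared barcode kept only in its deepest library it was -5.17 points (exact p = 0.28). No difference between MIA and saline was detected with 3 libraries a group, which does not show that there is none.

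**Figure D3:**
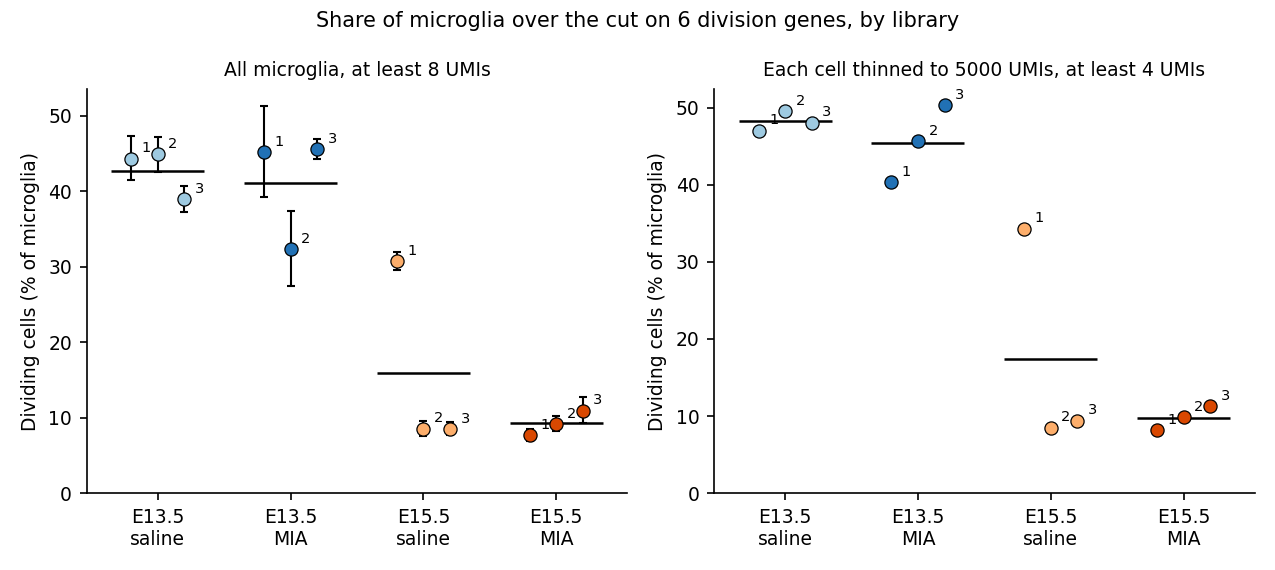
Dividing cells as a percent of microglia in each library, with exact 95% binomial intervals for counting error (left), and the same share among cells thinned to 5000 UMIs with at least 4 UMIs of the 6 genes (right). Points are libraries with their replicate numbers and lines are group means. E13.5 libraries lie between 32.3% and 45.6% on the left and E15.5 libraries between 7.67% and 30.7%.

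Among the members, the balance between S phase and mitosis also differed with age. The mitotic share of the summed UMIs was 53.4%, 52.6% and 55.1% in E13.5 saline (53.7% ± 1.30, SD, n = 3) and 43.6%, 52.9% and 57.2% in E13.5 MIA (51.2% ± 6.96, SD, n = 3). It was 68.9%, 62.5% and 71.2% in E15.5 saline (67.6% ± 4.53, SD, n = 3) and 67.4%, 59.6% and 62.4% in E15.5 MIA (63.2% ± 3.98, SD, n = 3). Every E15.5 library was above every E13.5 library. The difference of 12.9 points had an exact permutation p of 0.005, the smallest possible, and stood at 13.2 points in the members with at least 2000 CPM of microglial genes. This test too takes the libraries of an age as independent.

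The mitotic genes separated the ages and the S phase genes did so in part. Mitotic genes summed to 1861 to 2552 CPM at E13.5 and 2791 to 3899 CPM at E15.5, with no overlap, and S phase genes to 1718 to 2408 CPM and 1453 to 2014 CPM, with overlap. Sums over members cannot tell fewer cells in S phase from less S phase RNA in each cell. Counted per member, mitotic UMIs averaged 53.5 to 76.4 in the E13.5 libraries and 43.2 to 65.4 in the E15.5 libraries, with overlap. The deeper E13.5 cells could pass the threshold of 8 UMIs at a lower CPM, so members were also chosen at one depth, with at least 4 UMIs after thinning to 5000, which gave 9.02 points (exact p = 0.01). With shared barcodes left out the difference was 8.64 points and missed the threshold (exact p = 0.115), and E13.5 MIA 2, left with 8 members, then stood at 76.6%. With each shared barcode kept only in its deepest library the difference was 13 points (exact p = 0.005). Between MIA and saline the mitotic share differed by -3.44 points (exact p = 0.23), and by 0.893 points without shared barcodes (exact p = 0.9). Leaving out 1 library gave -4.93 to -1.53 points.

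**Figure D4:**
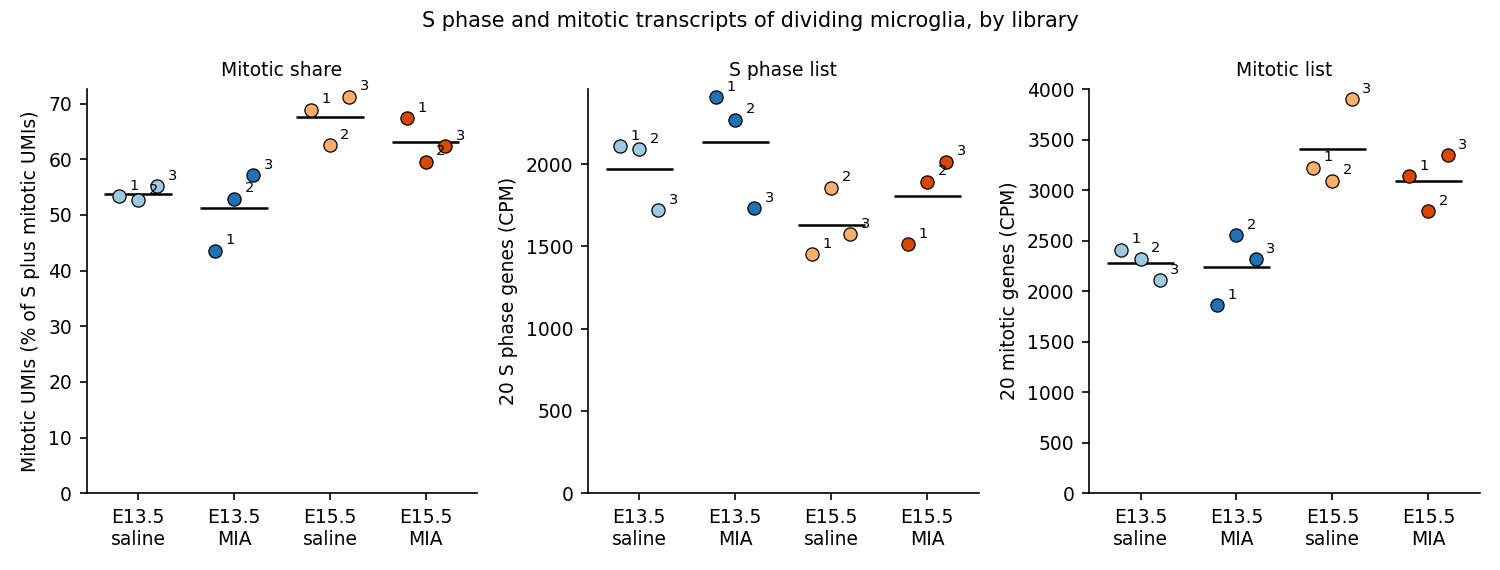
Mitotic share of S phase plus mitotic UMIs (left), summed S phase CPM (middle) and summed mitotic CPM (right) over the dividing microglia of each library, with lines at the group means. The mitotic share lies between 43.6% and 57.2% at E13.5 and between 59.6% and 71.2% at E15.5.

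Gene by gene, many spindle genes and cell cycle inhibitors took a larger share of the members' UMIs at E15.5 than at E13.5. So did some kinetochore and microglial identity genes, and some replication origin, oxidative phosphorylation and chaperone genes took a smaller share. The tests compare such shares, not RNA per cell. Of 11205 genes tested in members, 2282 (20.4%) were called at an adjusted p under 0.05 in edgeR's quasi-likelihood test, 1294 (11.5%) higher and 988 (8.82%) lower at E15.5. An unadjusted p under 0.05 was found for 3902 genes (34.8%). The median change over all genes was 0.01 on the log2 scale. The fit takes the libraries of an age as independent, so it may call too many genes where same-numbered libraries deviated together. For 990 genes (8.84%) the ranges over libraries did not overlap between ages. Saline libraries alone gave 387 calls, and MIA libraries alone gave 0 by edgeR, with 1776 genes at an unadjusted p under 0.05. Without shared barcodes 1322 genes were called, 1241 of them among the 2282. The 8720 members held 8593 distinct barcodes, and the main fit summed some barcodes in libraries of both ages. Leaving every shared barcode out also took 108 of the 116 members from E13.5 MIA 2.

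**Figure D5:**
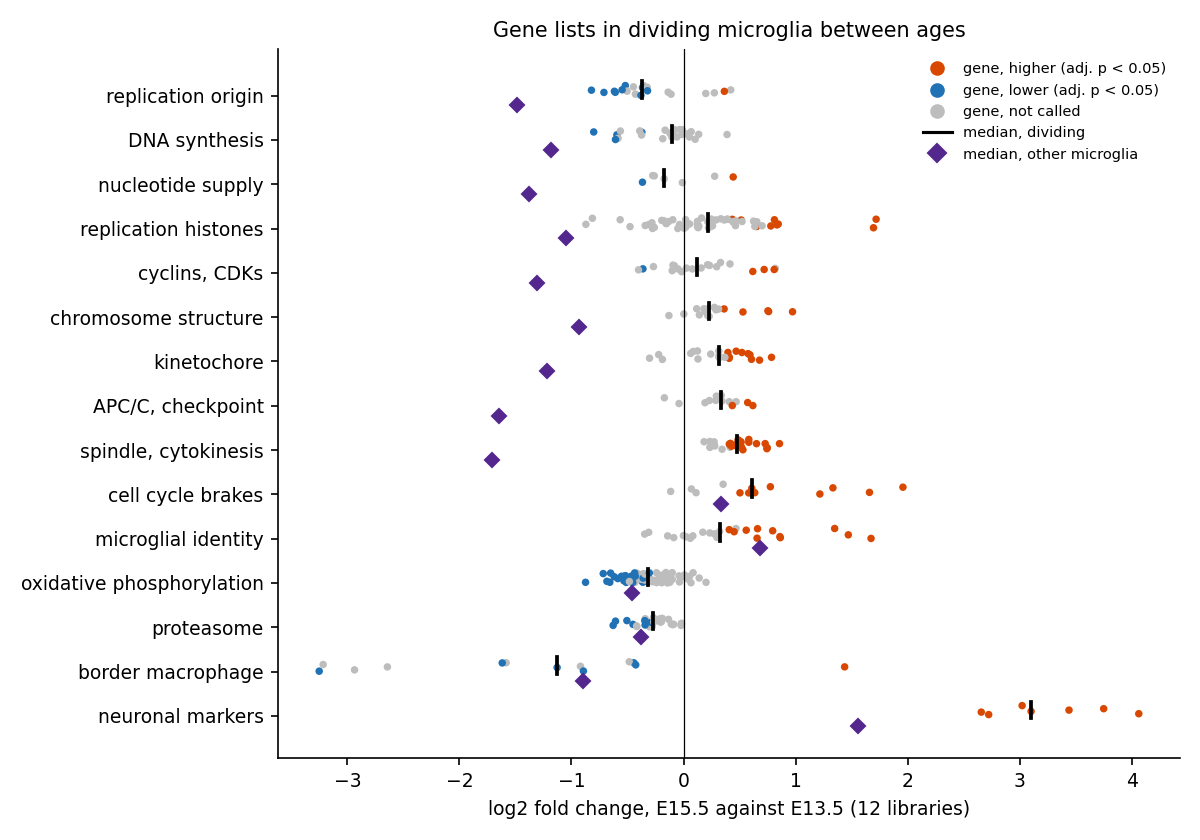
Log2 fold change from E13.5 to E15.5 in dividing microglia for each gene of 15 lists, with called genes in orange (higher) and blue (lower) and the rest in grey. Black bars are the medians in dividing microglia and purple diamonds the medians in the other microglia. Spindle genes had a median of 0.48 and replication origin genes one of -0.37.

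The spindle and cytokinesis genes, some of which also stand in the mitotic list, were mostly higher. Of 29, 20 were higher and none lower, with a median of 0.48, and 18 were higher without shared barcodes. Nusap1, which bundles spindle microtubules, was at 209, 161, 153, 133, 204 and 159 CPM in the E13.5 libraries and at 243, 311, 343, 235, 277 and 318 CPM at E15.5. Its ranges did not overlap, and the log2 fold change was 0.74 (SE 0.12, edgeR adjusted p = 0.00284). Aspm, which organises spindle poles, rose from 49.8 to 87.5 CPM at E13.5 to 100.3 to 192 CPM at E15.5 (log2 0.86, SE 0.15, adjusted p = 0.00335). Prc1 rose by a log2 of 0.75 (SE 0.17, adjusted p = 0.0108). With members chosen after thinning, 8 of the 29 were higher and the median was 0.33. The share called over all genes after thinning is not given here.

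The kinetochore, checkpoint and chromosome structure genes moved the same way where they passed the test. Of 23 kinetochore genes 10 were higher and none lower (median 0.32). Cenpm, a protein of the inner kinetochore, was at 28.2 to 38.8 CPM at E13.5 and at 50.9 to 64.9 CPM at E15.5 (log2 0.79, SE 0.11, adjusted p = 0.00155), and Knl1, the scaffold on which checkpoint proteins gather, rose by 0.68 (SE 0.14, adjusted p = 0.00721). Of 13 genes of the anaphase-promoting complex and its checkpoint 3 were higher (median 0.34), among them Fbxo5, an inhibitor of that complex (log2 0.62, SE 0.11, adjusted p = 0.00301). Of 17 chromosome structure genes 5 were higher (median 0.23). Choosing members after thinning left 8 of the 23 kinetochore genes higher (median 0.25). It left 2 of the 13 complex and checkpoint genes (median 0.21) and 4 of the 17 chromosome structure genes (median 0.19) higher. The deeper E13.5 cells could pass the rule at a lower CPM. The fold changes of single genes, above and below, are for members chosen without thinning, and their values after thinning are not given here.

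Single genes of these groups separated the ages cleanly. Esco2, which acetylates cohesin while sister chromatids are tied together, was at 54.9, 57.4, 44.1, 38.1, 53.9 and 50.1 CPM in the E13.5 libraries and at 68.3, 97.0, 117, 88.9, 109 and 118 CPM at E15.5 (log2 0.97, SE 0.13, adjusted p = 0.00126). H2afx, the histone variant that marks DNA breaks, ran from 210 to 340 CPM at E13.5 and from 412 to 630 CPM at E15.5 (log2 0.76, SE 0.17, adjusted p = 0.00844). Of 60 replication histone genes 9 were higher and none lower, with a median of 0.22. That share higher was near the 11.5% over all genes. Choosing members after thinning left 7 histone genes higher (median 0.14). Hist1h1b, a linker histone, ran from 680 to 989 CPM at E13.5 and from 908 to 1505 CPM at E15.5, with overlap (log2 0.65, SE 0.13, adjusted p = 0.00578). The histone genes share much of their sequence, and how reads were split among them was not examined.

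Some of the replication origin genes were lower. Of 20, 9 were lower and 1 higher, with a median of -0.37, and without shared barcodes 1 was lower and none higher, with a median of -0.29. Mcm2, an MCM helicase subunit, was at 64.2, 71.9, 47.0, 72.6, 74.3 and 43.7 CPM at E13.5 and at 30.1, 40.0, 35.6, 24.7, 34.0 and 50.8 CPM at E15.5, where only E15.5 MIA 3 reached into the E13.5 range (log2 -0.82, SE 0.18, adjusted p = 0.00823). Mcm6 fell by 0.61 on the log2 scale (SE 0.16, adjusted p = 0.0195), Mcm5 by 0.52 (SE 0.15, adjusted p = 0.0261) and Cdt1, which loads the helicase, by 0.55 (SE 0.16, adjusted p = 0.0311). Without shared barcodes these 3 kept their direction with adjusted p of about 0.11 each, and Mcm2 stayed at 0.045. With members chosen after thinning, 3 of the 20 were lower and the median was -0.23.

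Of 26 DNA synthesis genes 4 were lower and none higher (median -0.11), and of 7 genes of nucleotide supply 1 was lower and 1 higher (median -0.17), against 8.82% lower and 11.5% higher over all genes. Pcna, the sliding clamp of the polymerases, was at 120 to 260 CPM at E13.5 and at 70.6 to 138 CPM at E15.5, with overlap (log2 -0.80, SE 0.20, adjusted p = 0.016). Pola2, a subunit of the primase complex, separated the ages at 18.5 to 30.1 CPM and 13.2 to 18.3 CPM (log2 -0.59, SE 0.13, adjusted p = 0.00748). Tk1, thymidine kinase, went the other way, from 68.4 to 82.2 CPM at E13.5 to 88.6 to 115 CPM at E15.5 (log2 0.44, SE 0.10, adjusted p = 0.00816).

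Of 20 cyclin and cyclin-dependent kinase genes 3 were higher and 1 lower, near the 11.5% and 8.82% over all genes. Ccnb2 was at 108 to 147 CPM at E13.5 and at 139 to 249 CPM at E15.5 (log2 0.62, SE 0.16, adjusted p = 0.0192). Cdc25c, the phosphatase that opens mitosis, rose by 0.72 (SE 0.20, adjusted p = 0.0231). Ccnd1, the cyclin that links growth signals to the cell cycle, fell by 0.36 (SE 0.10, adjusted p = 0.0238). Myc, a growth transcription factor, was at 42.6, 45.2, 39.9, 48.8, 38.6 and 47.6 CPM at E13.5 and at 31, 30.7, 11.6, 25.1, 22.8 and 12.4 CPM at E15.5. Its ranges did not overlap (log2 -0.96, SE 0.23, adjusted p = 0.013).

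Many genes that restrain the cell cycle were higher in the E15.5 members. Of 13 tested, 9 were higher and none lower, with a median of 0.61, and 9 were higher with members chosen after thinning (median 0.48). The summed list rose in other microglia too, from a mean of 333 to 497 CPM, against 443 to 684 CPM in members. Cdkn1b, which encodes the inhibitor p27, was at 41.2, 36.5, 38.5, 26.9, 34.3 and 41.2 CPM at E13.5 and at 79.9, 81.4, 87.3, 111, 81.0 and 75.9 CPM at E15.5 (log2 1.22, SE 0.13, adjusted p = 0.000555). Cdkn1a, which encodes the inhibitor p21, was no higher than 23.9 CPM in any E13.5 library (mean 19 ± 2.86, SD, n = 6) and then at 23.2, 40.9, 52.3, 63.3, 74.2 and 46.5 CPM. E15.5 saline 1, at 23.2 CPM, was the only E15.5 library within the E13.5 range of Cdkn1a (log2 1.33, SE 0.18, adjusted p = 0.00118). Btg2, an antiproliferative gene, rose by 0.78 (SE 0.12, adjusted p = 0.00205) and Cdkn2d, an inhibitor of the cyclin D kinases, by 0.64 (SE 0.14, adjusted p = 0.00779). Of 9 targets of p53 tested, 2 were higher, against 11.5% over all genes.

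The 6 division genes themselves, which chose the cells, had log2 differences of 0.97 for Cenpf, 0.57 for Cenpe, 0.51 for Ube2c, 0.41 for Mki67, 0.35 for Top2a and 0.29 for Birc5. Mki67 ran from 530 to 792 CPM at E13.5 and from 497 to 1327 CPM at E15.5. Its highest levels were in E15.5 saline 3 (1327 CPM) and E15.5 MIA 3 (1231 CPM) and its lowest in E15.5 MIA 1 (497 CPM).

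Some microglial identity genes rose in dividing cells. Of 25, 11 were higher at E15.5 and none lower, with a median of 0.32, and 14 did not pass the test. Sparc, a secreted matrix protein of microglia, was at 514, 557, 657, 444, 605 and 592 CPM at E13.5 and at 1412, 1925, 2086, 1930, 2092 and 1444 CPM at E15.5 (log2 1.67, SE 0.14, adjusted p = 0.000162). Crybb1, an early microglial gene, rose by 1.47 (SE 0.17, adjusted p = 0.000676) and Selplg, a selectin ligand, by 1.35 (SE 0.12, adjusted p = 0.000202). Of 13 border macrophage genes 6 were lower and 1 higher (median -1.13). Pf4, a chemokine of border macrophages, was uneven at E13.5, at 416 and 603 CPM in E13.5 saline 1 and E13.5 MIA 1 and between 10.2 and 86.4 CPM in the other 4, and between 4.91 and 42.9 CPM at E15.5 (log2 -3.25, SE 1.00, adjusted p = 0.0371). Dab2, an endocytic adaptor, fell by 1.62 (SE 0.34, adjusted p = 0.00757).

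Some genes of energy metabolism, protein breakdown and protein folding were lower. Of 74 nuclear oxidative phosphorylation genes 27 were lower and none higher (median -0.32), of 31 proteasome genes 7 were lower (median -0.27) and of 6 chaperone genes 3 were lower (median -0.79). The libraries were uneven in these sums. The oxidative phosphorylation genes summed to 22446 to 28979 CPM at E13.5, to 25881 and 24611 CPM in E15.5 saline 1 and E15.5 MIA 1, which lay within that range, and to 18723 to 19990 CPM in the other 4 E15.5 libraries. The proteasome genes likewise summed to 5692 to 7241 CPM at E13.5, to 6344 and 6291 CPM in the same 2 libraries and to 4644 to 4856 CPM in the other 4. Atp5k, a subunit of ATP synthase, fell from 353 to 491 CPM at E13.5 to 158 to 265 CPM at E15.5 (log2 -0.87, SE 0.16, adjusted p = 0.00365). Hsph1, a heat shock protein, fell from 49 to 86.4 CPM to 23.5 to 48.2 CPM (log2 -1.01, SE 0.18, adjusted p = 0.00335). Lpl, lipoprotein lipase, was among 2 of 11 axon tract and phagocytic genes that were lower (log2 -1.34, SE 0.18, adjusted p = 0.00118). Of 20 interferon response genes 1 was higher and 1 lower, against 11.5% and 8.82% over all genes. Ribosomal protein genes stayed near the median of all genes, with 6 of 77 lower (median -0.01).

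Among the 637 genes (5.68%) that were called, reached 20 CPM and had ranges that did not overlap, the 10 with the largest rise were Stmn2, Ncam1, Dpysl3, Thra, Rac3, Gpm6b, Khdrbs3, Nrep, Nfia and Nav3. Several of them are known from neurons. Stmn2, a neuronal microtubule protein, was at 1.47 to 4.89 CPM at E13.5 and at 41.5, 26.7, 8.06, 173, 55.1 and 11.5 CPM at E15.5 (log2 4.06, SE 0.59, adjusted p = 0.00162). It rose by 3.28 in the members with at least 2000 CPM of microglial genes (adjusted p = 0.00078). All 7 neuronal markers were higher with and without the members below 2000 CPM, with medians of 3.1 and 2.32, and the part of neuronal RNA in the rises of these genes was not tested. Rac3, a small GTPase, rose by 2.11 in all members (SE 0.21, adjusted p = 0.00044) and by 2.08 in those with at least 2000 CPM.

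The 10 largest falls were in Itgal, Snhg9, Igf2bp1, Dab2, Lgals1, Gpr65, Slc39a14, Usp50, Ptpn7 and Adgre5. Itgal, an integrin of leukocytes, was at 29.8 to 57.3 CPM at E13.5 and at 3.18 to 25.2 CPM at E15.5 (log2 -1.77, SE 0.33, adjusted p = 0.00467). Igf2bp1, a fetal RNA-binding protein, reached 31.1 CPM at E13.5, where every library was above every E15.5 library, and was then at 6.38, 5.34, 5.31, 9.19, 4.35 and 9.81 CPM (log2 -1.62, SE 0.23, adjusted p = 0.00162). Lgals1, a galectin, fell by 1.61 (SE 0.23, adjusted p = 0.00162) and Slc39a14, a zinc and iron importer, by 1.54 (SE 0.16, adjusted p = 0.000545).

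The age difference of the members was set beside that of the other microglia in one model with library as a block. Of 13232 genes, 3317 (25.1%) differed in their age change between the classes at an adjusted p under 0.05 in edgeR, 1933 (14.6%) with a higher and 1384 (10.5%) with a lower change in members, and 4809 (36.3%) had an unadjusted p under 0.05. Taken alone, the other microglia had 4291 of 13448 genes (31.9%) called between the ages. The medians of the replication and mitotic lists lay on the higher side. The rule caps the summed UMIs of its 6 division genes in the other microglia, and its part in these medians was not tested. Outside those lists, identity genes rose less in dividing than in other microglia. The classes also differed in depth, and more so at E13.5. Library medians averaged 26071 UMIs in members and 8043 UMIs in other microglia at E13.5, and 14950 and 9872 UMIs at E15.5. An alternative fit kept only other microglia of at least their library's median UMIs. Its values for the identity genes are not given here, and the part of the gap in their difference was not assessed. In the main fit the age change was lower in members for 21 of 25 identity genes and higher for none (median -0.25). It was lower for 18 when cells under 2000 CPM of microglial genes were left out (median -0.19). P2ry12 went from 898 ± 128 CPM to 1429 ± 130 CPM in members and from 959 ± 62.0 CPM to 2018 ± 213 CPM in other microglia (SD, n = 6, difference of log2 changes -0.44, SE 0.06, adjusted p = 8.05e-05).

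Crybb1 stood further apart, going from 292 ± 38.4 to 824 ± 209 CPM in members and from 270 ± 46.6 to 1389 ± 437 CPM in the others (SD, n = 6, difference -0.90, SE 0.08, adjusted p = 5.72e-06). For Tmem119 the difference was -0.11 (SE 0.05, adjusted p = 0.177). Cdkn1a had the opposite sign, going from 19 ± 2.86 to 50.1 ± 17.8 CPM in members and from 27.6 ± 3.68 to 37.5 ± 3.87 CPM in the others (SD, n = 6, difference 0.88, SE 0.15, adjusted p = 0.000664). For Cdkn1b the difference was 0.21 (SE 0.08, adjusted p = 0.0662). The genes with the largest differences had low levels. Il12b, a cytokine subunit, averaged 0.339 CPM in E15.5 members and 5.13 CPM in the other E15.5 microglia.

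Between MIA and saline at E13.5, edgeR called 0 of the 11991 genes tested in dividing microglia, 107 (0.892%) had an unadjusted p under 0.05 and DESeq2 called 2, among them Grcc10. With the replicate number as a block, edgeR called Isg15, Pf4, Grcc10 and Nme2. The values below are without that block. The gene with the smallest p was Grcc10, at 51.1, 48.4 and 48.4 CPM in saline and 98.1, 113 and 65.4 CPM in MIA (log2 0.87, SE 0.16, edgeR adjusted p = 1). Nme2, a nucleoside diphosphate kinase, followed at a log2 of 1.39 (SE 0.29), and AC149090.1 stood at 0.60 (SE 0.19). Isg15, an interferon-induced ubiquitin-like protein, was at 13.1, 6.44 and 7.83 CPM in saline and 34.7, 17.0 and 14.9 CPM in MIA (log2 1.25, SE 0.34, adjusted p = 1). All 3 MIA values of Isg15 were above the saline values. The gene was named for its small p, so this is no separate test. The share of all genes separated in this way is not given here.

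On the lower side at E13.5 were Hist1h4d (-0.57, SE 0.22), Ddx3y (-0.50, SE 0.16), E2f3 (-0.32, SE 0.12), Crip1 (-0.30, SE 0.12) and Sel1l (-0.30, SE 0.11), each with an edgeR adjusted p of 1. Ddx3y is on the Y chromosome, and the pools were of mixed sex. The 20 interferon response genes had a median of 0.75 and none was called, and the median was 0.45 without shared barcodes. The spindle list had a median of 0.00 and the replication origin list one of 0.07. In E13.5 MIA 1 and E13.5 MIA 2, 40.7% and 93.1% of members had barcodes found in other libraries, where 0 and 1 of these members were deeper. Crip1 turned to 0.13 when shared barcodes were left out, which took 108 members from E13.5 MIA 2.

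At E15.5 edgeR again called 0 genes, of 10803 tested, with 272 (2.52%) at an unadjusted p under 0.05 and 0 calls by DESeq2. Mex3a had the smallest p, at 9.70, 8.90 and 7.67 CPM in saline and 30.6, 21.3 and 11.1 CPM in MIA (log2 1.27, SE 0.35, adjusted p = 1). Its value was 0.44 in members with at least 2000 CPM of microglial genes. Nfia and Nfix, transcription factors of neural development, stood at 1.33 (SE 0.38) and 1.36 (SE 0.44), and at 0.42 and 0.21 in those members. Auts2 was at 1.92 (SE 0.60) and Igf1r, the insulin-like growth factor receptor, at 0.75 (SE 0.23), and at 1.10 and 0.42 in those members. The neuronal markers had a median of 1.65 in all members and 0.51 in those with at least 2000 CPM.

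The replicate numbers of the E15.5 libraries marked samples that deviated together, and with the number as a block 59 genes (0.546%) were called, all higher in MIA. With that block and without the members below 2000 CPM, 0 were called. On the lower side were Ifi27l2a (-0.86, SE 0.30), Epsti1 (-0.69, SE 0.24), Cd52 (-0.57, SE 0.21), Tspan32 (-0.55, SE 0.19) and Crip1 (-0.50, SE 0.17), each with an edgeR adjusted p of 1. In members with at least 2000 CPM these were at -0.74, -0.54, -0.45, -0.41 and -0.38. Interferon response genes had a median of -0.88 at this age. Their sums overlapped, at 1138 to 1914 CPM in the saline libraries and 1003 to 1215 CPM in the MIA libraries. Isg15 was at 16.0, 73.0 and 6.49 CPM in saline and 21.0, 8.91 and 6.83 CPM in MIA, so E15.5 saline 2 alone carried the high value.

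The MIA effect was also compared between ages and between classes. The difference in MIA effect between E15.5 and E13.5 reached the threshold for 0 of 11205 genes by edgeR, with 155 (1.38%) at an unadjusted p under 0.05 and 0 calls by DESeq2. Between dividing and other microglia the MIA effect differed for 0 of 13232 genes at E13.5, with 193 (1.46%) at an unadjusted p under 0.05, and for 0 at E15.5, with 1256 (9.49%). Without the low-count filter some genes were called in this contrast at both ages. DESeq2 was not run on the contrasts between classes. A p that misses the threshold does not show that MIA acts alike at both ages or in both classes.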

How the data were processed

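The authors aligned reads of each library to mm10 with Cell Ranger (3.1.0 in the submitters' processing notes, a later version in the study's methods) and deposited UMI counts per gene and cell. The counts were read with Python 3.11.15 and scanpy 1.11.5. Members and gene lists were chosen with earlier results of these data known. Doublets were kept, and an alternative left out the cells with the highest Scrublet scores, at 0.8% per 1000 cells. UMIs were summed over the members of each library and tested with edgeR 4.0.16 (quasi-likelihood, TMM, filterByExpr, Benjamini-Hochberg over all genes tested, threshold 0.05) in R 4.3.3. DESeq2 1.42.0 was an alternative. For shares, the library labels were permuted exhaustively (two-sided exact test), and their intervals cover counting error only. The scripts were tested on simulated data. Same-numbered saline and MIA libraries correlated in their deviations at 0.626, 0.202 and 0.606 at E15.5, at 0.245, 0.0634 and 0.400 at E13.5, and at -0.433 to 0.0862 across ages, so the numbers were taken as pairs at E15.5 only. Named genes were the 10 largest called changes in each direction with at least 20 CPM and ranges that did not overlap, up to 4 called genes of each list, and, where fewer than 5 genes were called, the 5 with the smallest p in each direction. The study's own tests used sequencing batch as a covariate, but which libraries shared a batch is not given in the sources used here. The separation of cells by Xist or Tsix UMIs was one further alternative. RefSeq promoters were matched by gene symbol, for 18 of the 20 mitotic genes and 0 of 67 replication histone genes. Some genes that the rule picked are not reported here.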

Additional observations from a re-analysis of the deposited data

Results flagged for a closer look

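The change with age differed between dividing and other microglia by a test of that difference, for 3317 of 13232 genes (edgeR, adjusted p under 0.05). Leaving out E13.5 MIA 3, the library with the most members, gave 1913 genes, and leaving out any other library gave up to 3351. The rule limits the UMIs of its 6 division genes that the other microglia can hold. Its part in the difference for other cell cycle genes was not tested. The identity genes, which the rule did not use, had a median difference of -0.25, lower in members for 21 of 25. The classes differed in depth, more at E13.5 than at E15.5. An alternative fit kept only other microglia of at least their library's median UMIs. Its values for the identity genes are not given here, and the part of depth in their difference was not assessed.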

How the results depend on the processing

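In the age comparison 834 genes were called with a replicate block, 387 in saline libraries alone, 0 in MIA libraries alone and 1322 without shared barcodes, against 2282, and leaving out 1 library gave 1600 to 2864. That block joined same-numbered libraries across ages, not across treatments. At E13.5 the MIA count of 0 became 2 with DESeq2, 4 with a replicate block (Isg15, Pf4, Grcc10, Nme2) and 1 with sums split by sex, and 0 to 2 with 1 library left out. At E15.5 the block gave 59. The block changed no other call. Without shared barcodes the fold change of Crip1 at E13.5 turned to 0.13, the effect of MIA on the mitotic share to 0.893 points, and the age difference in mitotic share fell to 8.64 points and missed the threshold. The MIA difference between classes rose from 0 to 49 genes at E13.5 and 380 at E15.5 without the low-count filter, and at E15.5 to 1 with other microglia of at least the median UMIs, to 1 with shared barcodes kept in their deepest library, and to 0 to 4 with 1 library left out. The age difference between classes gave 1913 to 3351 genes with 1 library left out. The settings on shared barcodes, single treatments and 2000 CPM were chosen after seeing the data. The causes were not tested. With 3 libraries a group and 116 to 154 members in the smallest, small effects of MIA may have been missed.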
